A study of Mus musculus with 24 samples.

Results

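Carcinoma areas of mouse mammary tumors were compared with normal mammary gland (NMG) for their miRNAs, to describe which miRNA families and which tissue compartments were lower or higher in the tumor tissue. The samples were taken by their titles: 5 carcinoma samples and 2 NMG samples, which are 7 of the 24 samples of the series. Of the probes, the 566 for mouse miRNAs were used, and 550 of them had a value above 0 in at least 1 of the 24 samples and were tested. The tumors grew in female Balb/C nude mice of 6 to 9 weeks, which lack T cells, after JygMC(A)-GFP/Luc cells had been injected into the fourth mammary fat pad of both sides. JygMC(A) is 1 cell line from a mammary carcinoma of a wild mouse, with a mouse mammary tumor virus insertion in Notch4, so tumor cells and host differ in strain. NMG came from mice of that strain, sex and age range that the labels mark as new samples. Any difference in how they were handled and the difference between the groups cannot be told apart. Areas were cut out by laser-capture microdissection, which lifts chosen regions from a section under a microscope, and which regions of the gland were taken for NMG is not given in the sources used here. The label of carcinoma replicate 1 names 3 animals, so that sample may be a pool. Animals of carcinoma replicates 1 to 3 carry letters and those of replicates 4 and 5 numbers.

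A miRNA is a short RNA that guides silencing proteins to messenger RNAs, mainly through its seed, the bases near its 5′ end. Members of a family share the seed and so many targets, while neighbors in the genome are often cut from the same transcript. Many miRNAs are also nearly restricted to a cell type, such as miR-126 to endothelium, miR-451 to red blood cells, miR-150 to lymphocytes, miR-1 to muscle and miR-205 to basal epithelium. A laser-captured area holds host vessels, blood and stroma beside epithelial cells, and a normal gland also holds fat, and often muscle, next to its ducts.

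The mature sequences of the miRNAs on which the results turn are shown first, from RefSeq (GRCm38.p6), 5′ to 3′, with the seed (bases 2 to 8) in capitals. Of the 30 panel names looked up, 28 had a sequence there, and miR-140 and miR-150 did not. The miRNAs of lower level in carcinoma that mark blood cells, endothelium, basal epithelium and fibroblasts have different seeds.
miR-451: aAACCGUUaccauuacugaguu
miR-144: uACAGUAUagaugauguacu
miR-126-3p: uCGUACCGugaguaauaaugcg
miR-205: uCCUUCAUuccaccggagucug
miR-199a-3p: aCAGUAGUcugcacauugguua
The 3 members of the miR-29 family, all of lower level in carcinoma, share a seed.
miR-29a: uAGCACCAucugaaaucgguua
miR-29b: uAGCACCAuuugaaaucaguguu
miR-29c: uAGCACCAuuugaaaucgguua
Of the miR-15/16 group, miR-15b, miR-16 and miR-322 share a seed, and miR-503 has a different one.
miR-15b: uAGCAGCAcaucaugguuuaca
miR-16: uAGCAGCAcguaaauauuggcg
miR-322: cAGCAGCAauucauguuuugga
miR-503: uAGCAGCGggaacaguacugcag
The pairs below share a seed, but only the first of each pair was called higher in carcinoma (the difference within a pair was not tested).
miR-130b: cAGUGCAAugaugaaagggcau
miR-130a: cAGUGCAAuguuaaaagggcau
let-7e: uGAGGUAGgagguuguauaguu
let-7a: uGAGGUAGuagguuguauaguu
miR-125a-5p: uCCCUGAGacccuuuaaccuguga
miR-125b-5p: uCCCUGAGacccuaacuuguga
The largest gain was that of miR-9, and miR-183 was the luminal list member called higher.
miR-9: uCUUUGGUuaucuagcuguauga
miR-183: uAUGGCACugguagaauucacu

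The nCounter assay counts color barcodes, 1 for each miRNA captured, with no amplification. From each deposited value the background of its lane, the average of 6 negative control probes, had already been removed, and lanes differ in how much RNA they hold. The sum of the deposited mouse miRNA values (those below 0 included) was 113594 to 162045 in carcinoma and 525225 and 559660 in NMG. Lanes were therefore scaled with TMM factors, which take the trimmed average of log ratios to a reference lane as their offset, and the scaled values are called normalized. The detection limit, set 2 SD above the average of those controls, corresponded to 11.1 to 24.6 normalized units in carcinoma and to 3.54 and 3.85 in NMG. It left 150 to 227 mouse miRNAs above the limit in a carcinoma sample, against 358 and 345 in NMG. Low miRNAs could be seen in NMG at levels that were not detectable in carcinoma. A level in carcinoma under the limit is therefore given as a bound. Pearson correlations of log2 levels were 0.884 to 0.941 between carcinoma samples and 0.962 between the NMG samples.

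More miRNAs were called lower than higher, though the 2 counts were closer among miRNAs above the limit in every sample. With limma on log2(normalized value + 1) over all 24 samples and Benjamini-Hochberg adjustment over 583 probes, 32 mouse miRNAs were called higher (5.82% of those tested) and 134 lower (24.4%) in carcinoma at an adjusted p under 0.05, together 30.2%. Restricted to miRNAs above the limit in every sample of the higher group, 31 were higher (5.64%) and 99 lower (18.0%), and these are called measured. In all 31, every carcinoma sample lay above both NMG samples, and in 97 of the 99 every carcinoma sample lay below both. Over all mouse miRNAs tested such a gap existed upward in 8.18% and downward in 30.9%. The p-values rest on the spread of each probe within all 7 groups of the series, so largely on groups other than NMG, which has 2 samples. Of the 99 lower miRNAs, 36 were above the limit in all carcinoma samples, 17 in some, and 46 in none. Among the 132 miRNAs above the limit in all 7 samples, 28 were called higher and 36 lower. With values of all lanes raised to the highest limit, 30 were called higher and 82 lower. Of the 33 probes for viral miRNAs, 0 were called higher and 5 lower (15.2%), and with this common floor 0 were called. In limma without adjustment, 208 mouse miRNAs had a p under 0.05. Without NMG replicate 1 the counts fell to 22 higher and 76 lower (21 and 53 measured), and without NMG replicate 2 to 16 and 87 (16 and 56 measured). The lone NMG sample was then taken to vary as the other groups do.

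**Figure D1:**
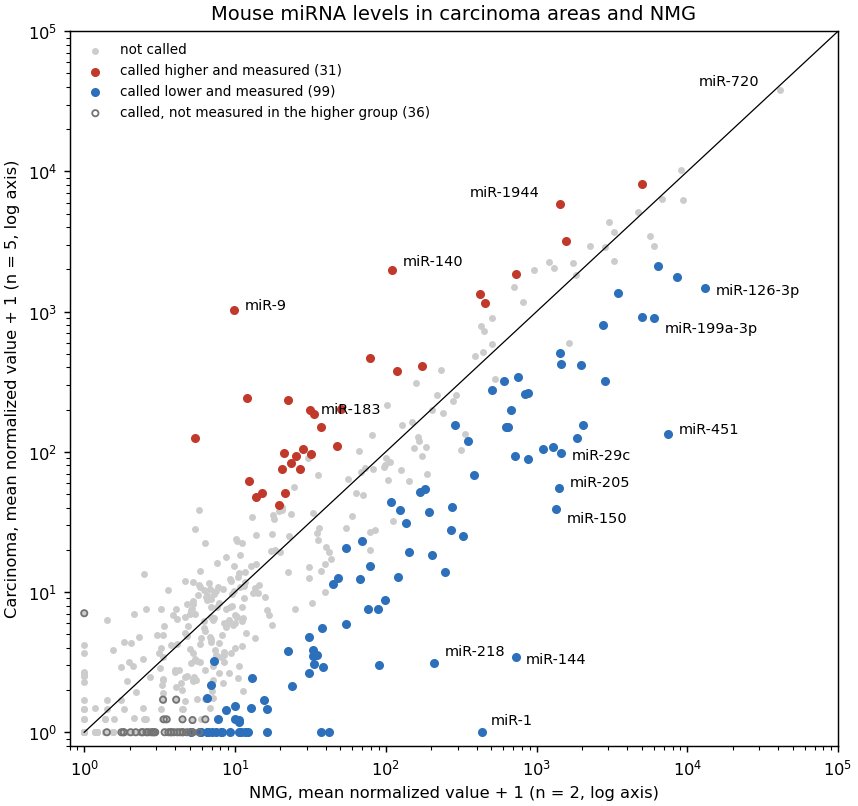
Mean normalized value + 1 of each mouse miRNA in NMG (x axis, n = 2) and in carcinoma areas (y axis, n = 5), both on log axes, with the line of equal level. The 99 measured lower miRNAs reach far below the line, miR-451 and miR-144 among them, while miR-9 stands farthest above it.

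The balance of gain and loss moved with the scaling. Setting lanes to the sum of their 100 most abundant miRNAs, or of all, gave 46 higher and 95 lower (32.6% of calls higher, against 19.3%), since the median log2 fold change of the 132 miRNAs above the limit in all 7 samples moved from -0.06 by 0.45. Scaling by the 4 mRNA control probes (Actb, B2m, Gapdh, Rpl19) gave 6 higher and 163 lower (3.55% of calls higher) and moved that median by -0.88. With no scaling there were 5 higher and 275 lower (1.79%), with a move of -1.57. Fold changes below are relative to the TMM scale, and a miRNA whose direction turns under another scaling is named as such. Counts of list members called are to be read beside the 5.82% called higher and 24.4% called lower of all mouse miRNAs. The median log2 fold change over all 550 mouse miRNAs was -0.65. It was 0 when each miRNA under the limit in all carcinoma samples (303 of 550) was set to its bound, or to 0 where it had none. That median of 0 thus reflects the fill value and is not a measured change.

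The most abundant miRNAs differed in part. The 10 of highest median in carcinoma and the 10 of highest mean in NMG shared 4: miR-720, let-7c, let-7a and miR-125b-5p. The probe for miR-720 took 19.1% to 29.4% of the sum in carcinoma and 22.6% and 15.5% in NMG. Only NMG had miR-126-3p, miR-22, miR-451, miR-16, miR-148a and miR-199a-3p among its 10, of which miR-148a was not called (adjusted p = 0.485) and the others were called lower. Only carcinoma had let-7b, miR-1944, let-7d, the joint probe for miR-1937a and miR-1937b, miR-21 and miR-125a-5p, of which let-7b, miR-1944 and miR-125a-5p were called higher and the other 3 overlapped between groups with no call. The oncogenic miR-21, often raised in tumors, was 2106, 2422, 3772, 3471 and 6628 in carcinoma and 2736 and 3823 in NMG, so the groups overlapped and it was not called (log2 change 0.06 ± 0.76 SE, adjusted p = 1), and its sign turned without scaling (-1.51) and with the mRNA controls (-0.81). For miR-22, which many tissues share, values were 1716, 941, 1573, 2072 and 2558 in carcinoma and 10806 and 6297 in NMG. Every carcinoma sample was below both NMG samples (log2 change -2.29 ± 0.49 SE, adjusted p = 0.00123), a call lost without NMG replicate 1 (adjusted p = 0.0522, range 7.1e-06 to 0.0522 over the settings).

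Red blood cell miRNAs had the lowest median of the lists. All 3 were called lower (median log2 fold change -5.86, or -5.26 with miR-144 at its bound). For miR-451, which matures in red cells without Dicer and lies at chr11:78073186-78073207 next to miR-144, normalized values were 133, 159, 99.6, 77.4 and 200.3 in carcinoma and 7475 and 7401 in NMG. The groups did not overlap, with 134 ± 48.6 (SD, n = 5) in carcinoma against 7438 ± 52.2 (SD, n = 2) in NMG, log2 change -5.86 ± 0.40 SE, adjusted p = 4.64e-10. Its neighbor miR-144 (chr11:78073047-78073066) had 496 and 973 in NMG, and all carcinoma samples were under the limit, which makes it at least 38.3-fold lower (adjusted p = 2e-06). The third, miR-486 from the ankyrin gene Ank1, was 11.1, 30.7, 21.1, 6.24 and 21.8 in carcinoma and 148 and 134 in NMG (log2 change -3.06 ± 0.58 SE, adjusted p = 0.000342). All carcinoma samples lay below NMG, 2 of them under the limit. No culture of the tumor cells was above its limit (27.5 to 34.4 normalized units) for any of the 3. In bulk samples fewer cells of a type and less RNA per cell cannot be told apart, here and for every compartment that follows.

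Endothelial miR-126, cut from an intron of the vessel gene Egfl7, was lower on both arms. For miR-126-3p the values were 1505, 1015, 1752, 1604 and 1529 in carcinoma and 16155 and 9882 in NMG. Every carcinoma sample held a clear level, yet all lay far below NMG (1481 ± 278 against 13019 ± 4436, log2 change -3.12 ± 0.38 SE, adjusted p = 1.82e-06). The other arm, miR-126-5p, gave 52.0 to 143 in carcinoma against 1494 and 1089 in NMG, with log2 change -3.63 ± 0.49 SE, adjusted p = 6.42e-06. Both arms read 0 in all 4 cultures of the tumor cells.

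Of 6 leukocyte miRNAs listed, 3 were called lower, 2 higher and 1 not (median -1.20). The 2 called higher had nearly flat deposited values, spanning 1.80-fold (miR-155) and 2.07-fold (miR-142-5p) over the 24 lanes. Before scaling, the groups overlapped for both. The lymphocyte miRNA miR-150 was 25.5, 50.8, 26.8, 40.0 and 49.1 in carcinoma and 2029 and 678 in NMG, without overlap (log2 change -4.95 ± 0.50 SE, adjusted p = 1.8e-07), and the cultures read 20.2, 34.7, 29.6 and 19.8, with 1 of 4 above its limit. For miR-142-3p, present across blood cell lineages, values were 85.4, 88.6, 92.9, 166 and 337 in carcinoma and 2779.5 and 1294 in NMG (log2 change -3.84 ± 0.59 SE, adjusted p = 3.62e-05). The myeloid miR-223 was 79.9, 79.1, 79.5, 141 and 368 in carcinoma and 782 and 510.1 in NMG. Carcinoma replicate 5 was the highest tumor sample and still below NMG (log2 change -2.37 ± 0.51 SE, adjusted p = 0.00121). By contrast miR-146a, a feedback inhibitor of NF-kB signaling, overlapped between groups (328, 267, 372, 742 and 1218 in carcinoma and 582 and 435 in NMG, log2 change -0.02 ± 0.48 SE, adjusted p = 1), with its sign turned by scaling on the 100 most abundant miRNAs (0.43) or the total (0.43). The 2 called higher, miR-155 and miR-142-5p, are described with the probes of flat deposited values below. Neither was called without scaling (0 higher and 4 lower of the 6) or on the mRNA control scale (0 and 3), where miR-155 had log2 changes of 0.10 and 0.79 (adjusted p of 0.000103 to 0.834 over all settings).

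Stromal miRNAs of fibroblasts and smooth muscle were lower. The arms of miR-199a, a mesenchymal miRNA, were both called. Values of miR-199a-3p were 1022, 633, 685, 1349 and 785 in carcinoma and 6665 and 5318 in NMG (log2 change -2.79 ± 0.45 SE, adjusted p = 4.93e-05), and those of miR-199a-5p were 331, 329.6, 196, 489.6 and 260.3 in carcinoma and 2424 and 3285 in NMG (log2 change -3.20 ± 0.42 SE, adjusted p = 4.55e-06). Neither arm's groups overlapped, and both arms read 0 in all 4 cultures. The other probe of the fibroblast list, miR-214, was not called (0 to 46.2 against 36.7 and 42.0). In the smooth muscle pair, miR-143 was 68.8, 96.9, 91.9, 122 and 244 in carcinoma and 1332 and 2354 in NMG (log2 change -3.96 ± 0.97 SE, adjusted p = 0.00380) and miR-145 778, 729, 673, 952 and 1445 in carcinoma and 4707 and 5237 in NMG (log2 change -2.50 ± 0.36 SE, adjusted p = 1.86e-05). Carcinoma lay below NMG in every sample for both, and miR-145 was also present in all cultures (1272, 404, 425 and 493). Without NMG replicate 2 the call of miR-143 was lost (adjusted p = 0.0744, range 1.41e-06 to 0.0744).

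Of the 4 miRNAs linked to fat, 3 were lower. Normalized miR-365, which has a gene next to that of miR-193b, was 101, 78.0, 92.9, 79.9 and 85.9 in carcinoma and 736 and 1016 in NMG (log2 change -3.30 ± 0.40 SE, adjusted p = 2.14e-06). For miR-378, cut from the metabolic regulator gene Ppargc1b, the values were 103, 60.2, 93.8, 77.4 and 124 in carcinoma and 819 and 624 in NMG (log2 change -2.99 ± 0.36 SE, adjusted p = 1.7e-06). Neither overlapped between groups. All carcinoma samples were at 0 for miR-193, at 33.8 and 39.0 in NMG, so it was at least 2.05-fold lower (adjusted p = 3.42e-09). Its seed partner miR-193b, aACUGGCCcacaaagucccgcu against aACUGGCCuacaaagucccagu for miR-193, overlapped (73.2, 59.1, 70.8, 87.4 and 92.7 in carcinoma and 115 and 78.7 in NMG, log2 change -0.33 ± 0.34 SE, adjusted p = 0.564). The sign of that small difference turned when lanes were scaled by the 100 most abundant miRNAs (0.12) or the total (0.12).

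Skeletal muscle miRNAs differed between the NMG samples. For miR-1 all 5 carcinoma samples read 0 and NMG read 834 and 30.8, at least 8.98-fold lower (adjusted p = 2.5e-06), but at least 1.75-fold against NMG replicate 2 alone and 46.0-fold against NMG replicate 1. For miR-133a, carcinoma was under the limit throughout (1.36 to 11.2) and NMG read 168 and 6.68, at least 1.99-fold lower (adjusted p = 0.0259), with no bound against NMG replicate 2 alone. NMG replicate 1 thus stood far above NMG replicate 2 for both, and NMG replicate 2 overlapped the carcinoma values of miR-133a. Without NMG replicate 1 the call of miR-133a was lost (adjusted p = 0.957, range 0.000258 to 0.957), as it was without carcinoma replicate 3 or 5, while that of miR-1 was kept (0.000237, range 8.24e-08 to 0.00633). Over the 7 muscle probes the summed level was 1032 in NMG replicate 1, 50.9 in NMG replicate 2 and 10.5 to 49.6 in carcinoma.

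The epithelial compartments did not move together. The basal miRNA miR-205 was 26.6, 44.9, 16.3, 129 and 53.2 in carcinoma and 1316 and 1505 in NMG, with every carcinoma sample far below NMG (log2 change -5.02 ± 0.78 SE, adjusted p = 3.74e-05). Carcinoma replicate 3 was under the limit, as were 3 of the 4 cultures (34.2, 24.5, 20.9 and 22.3). The other basal list member, miR-203, overlapped and was not called (64.9 to 323 against 183 and 292). Of 8 luminal miRNAs 1 was called higher, miR-183, and 0 lower, against 5.82% and 24.4% of all mouse miRNAs. The luminal median was 0.53, which turned to -1.04, with 1 called lower, on unscaled values. It turned to -0.35 on those scaled by the mRNA controls. The members of the miR-200 family, which keep epithelial cells in their state by repressing Zeb1 and Zeb2, overlapped between groups. For miR-200b, values were 1647, 790.3, 1494, 246 and 286 in carcinoma and 391 and 616 in NMG, for miR-200c 1469, 705, 1142, 278 and 337 in carcinoma and 374 and 478 in NMG, and for miR-429 1312, 729, 1134, 169 and 281 in carcinoma and 349.9 and 549 in NMG. In these 3, carcinoma replicates 1 to 3 lay above both NMG samples and replicates 4 and 5 below both. The other 2 members did not show that order, with 470.4, 232, 460.4, 40.0 and 66.8 in carcinoma and 187 and 399 in NMG for miR-200a (log2 change -0.69 ± 1.43 SE, adjusted p = 0.820) and 136, 91.0, 168, 3.75 and 61.3 in carcinoma and 123 and 222.4 in NMG for miR-141 (log2 change -1.53 ± 1.08 SE, adjusted p = 0.326). For miR-200a and miR-141, too, carcinoma replicates 1 to 3 lay above replicates 4 and 5, and only the order relative to NMG differed. A limma test of lettered against numbered carcinoma samples called 0 of 583 probes (36 had an unadjusted p under 0.05).

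**Figure D2:**
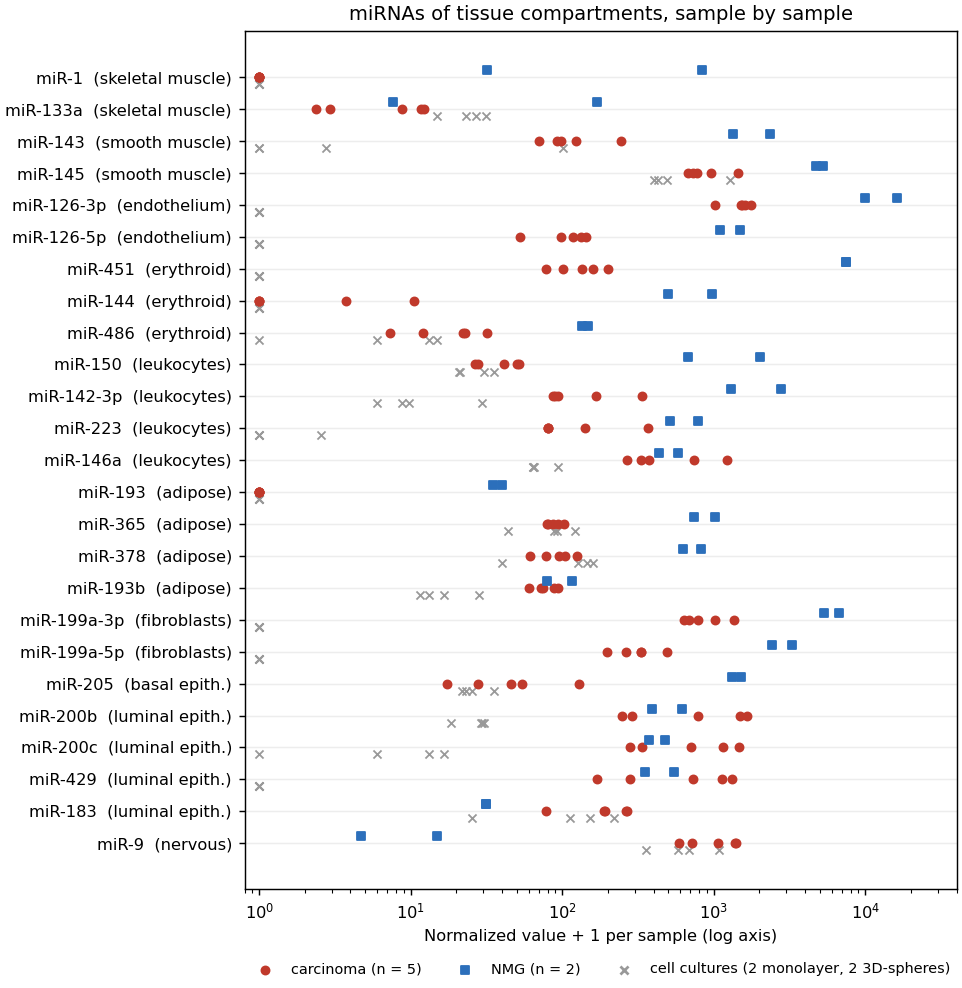
Normalized value + 1 (log axis) of miRNAs of tissue compartments in each carcinoma sample (circles, n = 5), NMG sample (squares, n = 2) and culture of the tumor cells (crosses, 2 monolayer and 2 3D-spheres). Erythroid, endothelial and fibroblast miRNAs lie highest in NMG and under the limit in the cultures, the miR-200 family overlaps between tissues, and miR-9 is high in tumors and cultures alike.

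The largest gain was that of miR-9, a miRNA of neural progenitors encoded by 3 genes. Its normalized values were 1373, 714, 1406, 584 and 1067 in carcinoma and 14.0 and 3.71 in NMG. The lowest carcinoma sample was far above both NMG samples, of which NMG replicate 2 was under the limit (log2 change 6.85 ± 0.53 SE, adjusted p = 1.85e-09). All 4 cultures of the tumor cells carried it, at 1075, 355, 582 and 689. Of the 8 nervous tissue probes tested it was the only one called and measured as higher. Another, miR-219, was called lower from 11.9 and 7.42 in NMG, but both levels lay under the limits of some carcinoma lanes, so no fold is given. The members above the limit in both NMG samples (miR-128, miR-129-3p, miR-129-5p and miR-138) had no call, and miR-137 was called lower with both NMG samples under the limit.

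Next among miRNAs with a known tissue was miR-140, a cartilage miRNA cut from an intron of Wwp2. Its values were 1327, 997, 1775, 1429 and 4408 in carcinoma and 105 and 114 in NMG. Every carcinoma sample was above NMG and replicate 5 was highest (log2 change 3.96 ± 0.94 SE, adjusted p = 0.00305). Unlike miR-9, it read only 185, 2.04, 6.97 and 0 in monolayer replicates 1 and 2 and sphere replicates 1 and 2, all far below the tumors. Both miRNAs were also higher in the deposited values before any scaling, miR-9 with 468 to 1469 against 34 and 10 counts and miR-140 with 844 to 3234 against 254 and 306.

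Few gains were present before scaling. Of the 31 measured higher miRNAs, 6 (miR-9, miR-140, miR-1196, miR-1944, miR-2133 and miR-2137) had all 5 carcinoma samples above NMG in deposited values, 24 overlapped, and let-7b was lower in all. Over all mouse miRNAs tested, 1.27% had such a gap upward in deposited values. The other 25 came out higher after dividing NMG lanes by factors of 2.43 and 2.69 and carcinoma lanes by 0.734 to 1.04. In 21 settings other than the one reported here, the calls of miR-9, miR-140, miR-1196 and miR-2137 were kept in each.

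Several of the higher probes carry late numbers in the miRNA catalog and no known tissue. Whether these probes, or that for miR-720, read miRNAs or fragments of other RNAs was not tested. For miR-2133 the values were 242, 175, 314, 69.9 and 414 in carcinoma and 19.0 and 2.97 in NMG (log2 change 4.55 ± 1.36 SE, adjusted p = 0.0157), and without NMG replicate 2 its call was lost (0.236, range 0.00607 to 0.236). For miR-2137 they were 264, 129, 74.7, 57.4 and 98.1 in carcinoma and 3.30 and 5.57 in NMG (log2 change 4.35 ± 0.73 SE, adjusted p = 8.84e-05), and NMG replicate 1 was under the limit. Carcinoma exceeded NMG in every sample for both. Values of miR-1196 were 321, 204, 170.4, 152.4 and 311 in carcinoma and 22.7 and 20.4 in NMG (log2 change 3.30 ± 0.53 SE, adjusted p = 4.89e-05). The abundant miR-1944 was 4965, 5494, 5078, 5215 and 8476 in carcinoma and 1490.5 and 1351 in NMG (log2 change 2.01 ± 0.26 SE, adjusted p = 4.55e-06), with replicate 5 standing apart from the other tumors, and its call was lost on unscaled values and those scaled by mRNA controls (0.404 and 0.143, range 2.99e-07 to 0.404). The rest of the 12 largest gains with late numbers were miR-1224 (2.43), miR-1949 (2.37), miR-2141 (2.32) and miR-2134 (2.10), on the log2 scale. With NMG replicate 1 or 2 left out the adjusted p was 0.203 and 0.135 for miR-1224 (range 0.0189 to 0.394), whose call was also lost without carcinoma replicate 1 or 3. It was 0.152 without NMG replicate 1 for miR-1949 (range 0.000841 to 0.283), and 0.239 and 0.105 without NMG replicate 2 for miR-2141 and miR-2134 (ranges 0.00756 to 0.375 and 0.00183 to 0.470).

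Among well-known miRNAs the gains were moderate. Epithelial miR-183 was 267, 191, 264, 77.4 and 188 in carcinoma and 30.5 and 30.4 in NMG, without overlap (log2 change 2.54 ± 0.60 SE, adjusted p = 0.00271). Its cluster partner miR-96 overlapped (89.9 to 289 against 72.5 and 129). The tumor-linked miR-31 was 77.7, 70.9, 88.1, 91.2 and 135 in carcinoma and 23.9 and 24.5 in NMG (log2 change 1.86 ± 0.40 SE, adjusted p = 0.00127), and miR-221, a repressor of the cell cycle inhibitor p27, was 123, 152.4, 189, 179.8 and 357 in carcinoma and 44.1 and 54.6 in NMG (log2 change 1.91 ± 0.60 SE, adjusted p = 0.0195). Both were above NMG in every carcinoma sample, while miR-222, the partner of miR-221, overlapped (12.2, 24.8, 23.0, 18.7 and 108 in carcinoma and 16.5 and 22.3 in NMG, log2 change 0.48 ± 0.80 SE, adjusted p = 0.749). For miR-149 the values were 37.7, 40.2, 60.3, 109.9 and 127 in carcinoma and 25.1 and 14.1 in NMG (log2 change 1.76 ± 0.62 SE, adjusted p = 0.0368). The calls of miR-183, miR-31, miR-221 and miR-149 were lost, with directions kept, on the unscaled values and on those scaled by the mRNA controls. Without NMG replicate 1 or 2 the adjusted p was 0.155 and 0.0926 for miR-221 (range 0.00123 to 0.711), and 0.0869 and 0.308 for miR-149 (range 0.00689 to 0.854). The call of miR-149 was also lost without carcinoma replicates 3, 4 or 5.

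A set of higher probes had nearly the same deposited value in every lane. Across the 24 lanes the mouse miRNA sum spanned 95.6-fold, yet the deposited values of miR-142-5p, miR-155, miR-34c, miR-423-5p and miR-543 spanned less than 4-fold. These 5 were the only ones of the 132 miRNAs above the limit in all 7 samples with so narrow a span, and all 5 were called higher. For miR-142-5p the deposited values were 35, 31, 56, 50 and 43 in carcinoma and 55 and 50 in NMG, and the normalized ones 38.8, 36.6, 53.6, 62.4 and 58.6 in carcinoma and 22.7 and 18.6 in NMG (log2 change 1.21 ± 0.39 SE, adjusted p = 0.0213). Its call was lost when NMG replicate 1 or 2 was left out (0.0688 and 0.151, range 0.00286 to 0.716), and its sign turned with no scaling (-0.31). The probe names of miR-34c, miR-155 and miR-543 give shares of 0.124, 0.022 and 0.009 of the signal of positive control A. Taking this share off left miR-34c at or below 0 in both NMG samples and in carcinoma replicates 1 and 5 and ended its call (adjusted p = 0.266, range 0.000145 to 0.903). For miR-543 it turned the sign to -0.42, and its call was also lost without NMG replicate 2 (0.205, range 0.00183 to 0.958). For miR-155, of activated lymphocytes and macrophages, the step left 95.4 to 176 normalized units in carcinoma and 29.5 and 53.1 in NMG, and the call was kept (0.00148, range 0.000103 to 0.834). The cultures read 665, 842, 770.0 and 1031 for miR-155 before that step. The part of such a constant signal in the calls of miR-142-5p and miR-423-5p was not tested.

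**Figure D3:**
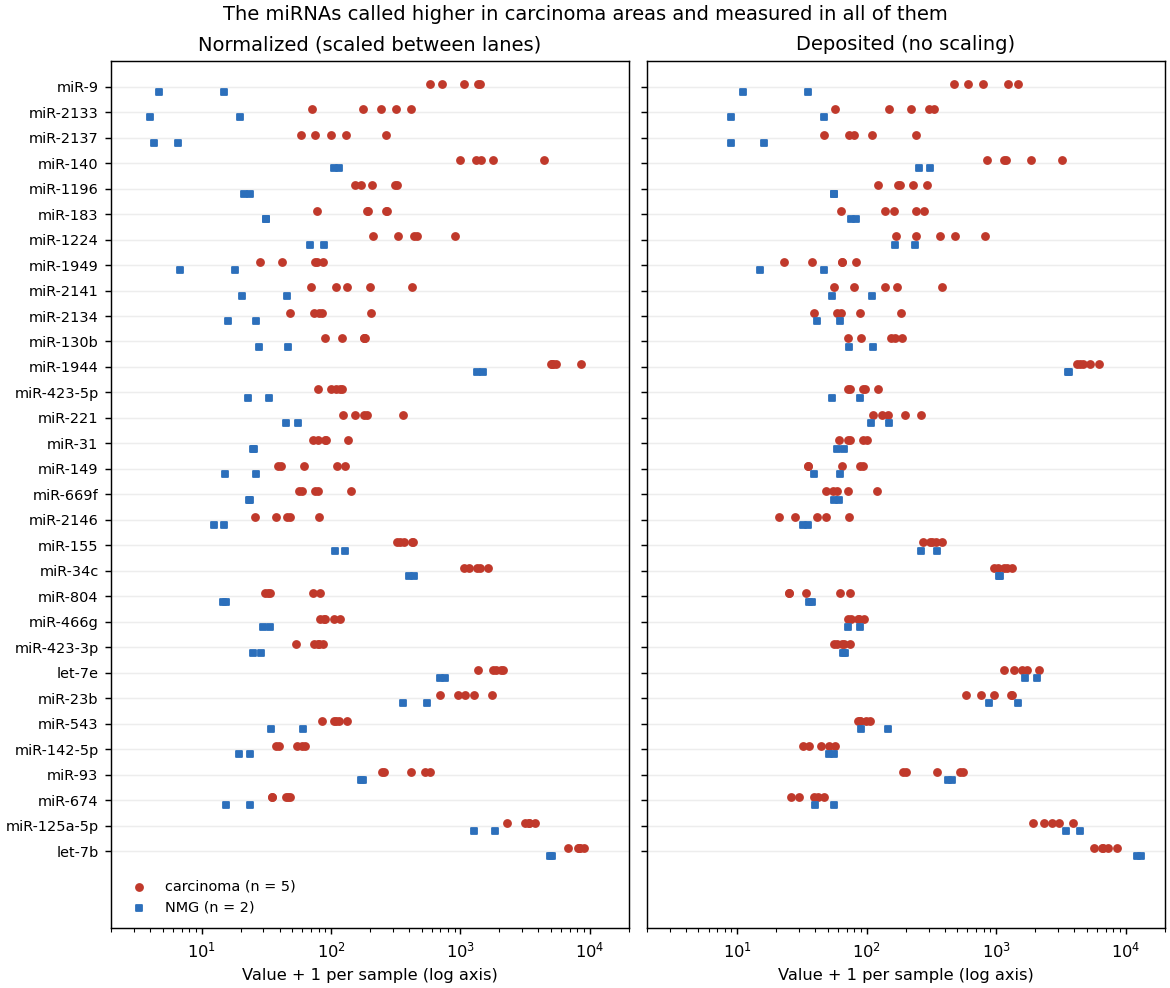
The 31 miRNAs called higher in carcinoma and above the limit in all 5 carcinoma samples, as normalized values (left) and as deposited values without scaling (right), per sample on log axes (value + 1). After scaling, all carcinoma samples lie above NMG. Without it this holds for 6 of them, while 24 overlap and let-7b is reversed.

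Among families, miR-29 and miR-30 were lower as a whole. The miR-29 family, which represses collagen genes, was graded. Values of miR-29c were 49.9, 67.3, 102, 86.2 and 181 in carcinoma and 1526 and 1368 in NMG (log2 change -4.02 ± 0.43 SE, adjusted p = 3.23e-07), those of miR-29b were 269.6, 312, 486, 365 and 649 in carcinoma and 2079 and 1889 in NMG (log2 change -2.32 ± 0.73 SE, adjusted p = 0.0199), and those of miR-29a were 1053, 921, 1485, 1148 and 2178 in carcinoma and 3589 and 3332 in NMG (log2 change -1.42 ± 0.44 SE, adjusted p = 0.0176). All carcinoma samples lay below NMG for each member, and only miR-29a was above the limit in all 4 cultures (1639.8, 328, 1683 and 2005). Both NMG samples were needed for the calls of miR-29a (0.129 and 0.0980, range 6.09e-05 to 0.164) and miR-29b (0.141 and 0.113, range 2.18e-05 to 0.144), which were lost without replicate 1 or 2. In the miR-30 family, an abundant group of differentiated epithelium, all 5 members were called lower, with log2 changes of -1.82 (miR-30a), -1.13 (miR-30b), -1.79 (miR-30c), -1.01 (miR-30d) and -1.73 (miR-30e). For miR-30a the values were 249.6, 219.7, 259, 171 and 401 in carcinoma and 911 and 856 in NMG (log2 change -1.82 ± 0.34 SE, adjusted p = 0.000302), and no member overlapped. All 5 miR-30 and all 3 miR-29 members stayed lower under each scaling, but with the 100 most abundant miRNAs 2 of 5 and 1 of 3 were called. When NMG replicate 1 or 2 was left out, the calls of miR-30d (0.111 and 0.132, range 4.92e-05 to 0.192) and miR-30e (0.126 and 0.192, range 5.21e-05 to 0.247) were lost. That of miR-30c was lost without NMG replicate 1 (0.101, range 3.07e-05 to 0.101) and that of miR-30b without NMG replicate 2 (0.148, range 9.84e-06 to 0.164). Leaving out carcinoma replicate 1 or 4 also took away the call of miR-30e.

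In the let-7, miR-99/100 and miR-125 families some members were called and others were not, and differences between members were not tested. Of the 9 let-7 members, regulators of differentiation, 2 were called higher and 0 lower (median 0.13, with 4 higher and 0 lower on the scale of the 100 most abundant miRNAs or the total, -1.44 and 7 lower on unscaled values and -0.75 on those scaled by the mRNA controls). Values of let-7e were 1767, 1366, 2051, 2147 and 1884 in carcinoma and 689.8 and 764 in NMG, without overlap (log2 change 1.33 ± 0.25 SE, adjusted p = 0.000268), against 7494, 5188, 7419, 5058 and 6778 in carcinoma and 5443 and 8082 in NMG for let-7a (log2 change -0.08 ± 0.27 SE, adjusted p = 0.955). Also higher was let-7b, with 8058, 6729, 8254, 8373 and 8940.5 in carcinoma and 5061 and 4888 in NMG (log2 change 0.69 ± 0.22 SE, adjusted p = 0.0217). Its call was lost without NMG replicate 1 or 2 (0.0821 and 0.104, range 0.000124 to 0.889), and its sign turned with no scaling (-0.88) and the mRNA controls (-0.19). The gene of let-7e (chr17:17830366-17830387) lies between those of miR-99b (chr17:17830194-17830215) and miR-125a (chr17:17830817-17830840). From the same cluster miR-125a-5p was higher, 3384, 2272, 3735, 3392 and 3174 in carcinoma and 1835 and 1282 in NMG (log2 change 1.04 ± 0.32 SE, adjusted p = 0.0186), and miR-99b was 396, 345, 476, 322 and 380.2 in carcinoma and 213 and 246 in NMG (log2 change 0.73 ± 0.30 SE, adjusted p = 0.0763), above NMG in every sample but not called. With no scaling let-7e, miR-125a-5p and miR-99b turned sign (-0.25, -0.54 and -0.84), and without NMG replicate 2 the call of miR-125a-5p was lost (0.226, range 0.000232 to 0.901). The paralogs of miR-99b and miR-125a-5p, encoded elsewhere, were not called higher. Values of miR-99a were 1095, 591, 837, 563 and 898 in carcinoma and 3041 and 2448 in NMG (log2 change -1.82 ± 0.43 SE, adjusted p = 0.00261, lost without NMG replicate 1 at 0.0512, range 2.97e-05 to 0.0512). For miR-100 they were 135, 102, 178, 106 and 140.4 in carcinoma and 339 and 328 in NMG (log2 change -1.36 ± 0.89 SE, adjusted p = 0.290), and for miR-125b-5p 5007, 4924, 5840.1, 5612 and 10055 in carcinoma and 9314 and 9423 in NMG (log2 change -0.63 ± 0.42 SE, adjusted p = 0.299).

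In the miR-15/16 family, which restrains the cell cycle, 4 of 7 members were called lower and 0 higher. Of all mouse miRNAs 24.4% were called lower. When lanes were set to the sum of the 100 most abundant, 2 members were lower and 1 higher (miR-15b). On the TMM scale the median log2 change of the 7 was -1.62, and -1.54 with miR-503, which has no bound, at 0. Values of miR-16 were 1940.2, 1643, 1974, 2350.4 and 2609 in carcinoma and 6555 and 6233 in NMG (log2 change -1.62 ± 0.51 SE, adjusted p = 0.0201), whereas those of miR-15b, encoded beside a copy of miR-16 on chromosome 3, were 2646, 2004, 2411, 1428 and 1702 in carcinoma and 1561 and 1042 in NMG (log2 change 0.64 ± 0.33 SE, adjusted p = 0.161). Carcinoma lay below NMG for miR-16 in every sample and overlapped for miR-15b, whose sign turned with no scaling (-0.93) and the mRNA controls (-0.24). The cultures read 4895, 2426, 1219 and 1395 for miR-15b and 941, 85.6, 71.4 and 96.7 for miR-16. For miR-322 the values were 68.8, 87.4, 68.0, 129.9 and 168 in carcinoma and 1151 and 1058 in NMG (log2 change -3.48 ± 0.36 SE, adjusted p = 2.26e-07). Its neighbor on the X chromosome, miR-503, read 0 in all carcinoma samples and 11.5 and 9.65 in NMG, levels too low for a bound. The X cluster of these 2 miRNAs was singled out after its values were seen. In it 5 of 8 probes were called lower and 0 higher, against 24.4% and 5.82% of all mouse miRNAs. Both miR-322 and miR-503 are among those called, so the count is not independent of them. Of these 8, 5 were under the limit in all carcinoma samples. For miR-195 values were 11.1, 18.9, 0, 5.0 and 23.2 in carcinoma and 44.1 and 50.1 in NMG (log2 change -2.57 ± 0.83 SE, adjusted p = 0.0241). Some of these carcinoma samples were under the limit. Without NMG replicate 1 or 2 the calls of miR-16 (0.134 and 0.113, range 0.000192 to 0.163) and miR-195 (0.119 and 0.146, range 2.86e-10 to 0.199) were lost.

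In the miR-130 family, miR-130b rose (181, 179.6, 178, 88.7 and 121 in carcinoma and 45.3 and 26.7 in NMG, log2 change 2.02 ± 0.34 SE, adjusted p = 8.95e-05) and miR-130a fell (443, 372, 521, 451 and 746 in carcinoma and 1589.8 and 1286 in NMG, log2 change -1.54 ± 0.50 SE, adjusted p = 0.0235). Neither overlapped between groups. The call of miR-130a was lost without NMG replicate 1 or 2 (0.177 and 0.0980, range 0.000212 to 0.177), and that of miR-130b on unscaled values and those scaled by the mRNA controls. Of the 5 probes for miR-23, miR-24 and miR-27, miR-23b was called higher (1075, 693, 1274, 953 and 1766 in carcinoma and 361 and 548 in NMG, log2 change 1.30 ± 0.37 SE, adjusted p = 0.0117) and 0 were lower, against 3 and 0 on the scale of the 100 most abundant or the total, and 0 higher and 2 lower with no scaling. In the latter the sign of miR-23b turned (-0.27), and its call was lost without NMG replicate 1 (0.173, range 0.000171 to 0.685). Of the 11 probes of the growth-promoting miR-17~92 group, miR-93 was called higher (580.2, 411, 532, 249 and 258 in carcinoma and 175 and 169 in NMG, log2 change 1.15 ± 0.42 SE, adjusted p = 0.0403) and 0 were lower, against 3 and 0 with either sum as the scale and 0 and 1 with no scaling. A count of 1 in 11 is near the 5.82% called higher of all mouse miRNAs. For miR-93, carcinoma replicates 4 and 5 lay nearest to NMG. The call of miR-93 was lost without either NMG sample (0.168 and 0.187, range 0.00146 to 0.854) and without carcinoma replicate 1, 2 or 3, and its sign turned with no scaling (-0.42).

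Several smaller families held called losses. From the Hox gene clusters, miR-10a was 41.0, 53.2, 24.9, 38.7 and 40.9 in carcinoma and 333 and 217 in NMG (log2 change -2.77 ± 0.44 SE, adjusted p = 4.8e-05), miR-10b 47.7, 43.7, 60.3, 78.7 and 109 in carcinoma and 437 and 330.4 in NMG (log2 change -2.55 ± 0.87 SE, adjusted p = 0.0302) and miR-196a 23.3, 21.3, 13.4, 56.2 and 6.81 in carcinoma and 363 and 283 in NMG (log2 change -3.98 ± 0.68 SE, adjusted p = 0.000115). All 3 lay below NMG in every carcinoma sample, and for miR-196a some of these samples were under the limit. The second miR-196, miR-196b, was 94.3, 89.8, 69.9, 18.7 and 72.2 in carcinoma and 206 and 169.7 in NMG, without overlap but not called (log2 change -1.61 ± 0.67 SE, adjusted p = 0.0780). The pair miR-26a (-2.0) and miR-26b (-2.14) and the pair miR-101a (-3.82) and miR-101b (-1.27), both known to target the chromatin gene Ezh2, were called lower on the log2 scale. For miR-101a only 1 carcinoma sample was above the limit (0 to 12.3, against 63.0 and 134 in NMG). Its log2 change thus rests on levels that were not measured. With the common floor the median of the miR-101 pair was -1.56, against -2.54. Some carcinoma samples were also under the limit for miR-26a. For miR-26b the values were 166, 96.9, 217, 97.4 and 165 in carcinoma and 658 and 599 in NMG (log2 change -2.14 ± 0.49 SE, adjusted p = 0.00213). In the miR-148 family, miR-148b (-1.75) and miR-152 (-1.85) were called lower, and the mammary-abundant miR-148a was not, though its 1341 to 3952 in carcinoma lay below the 7389.5 and 4596 of NMG. When lanes were set to the 100 most abundant miRNAs or to all, 0 of the 3 miR-148 members were called, and 1 of 2 in each of the miR-10, miR-26 and miR-101 pairs. Without NMG replicate 1 or 2 the calls of miR-10b (0.197 and 0.124, range 9.36e-05 to 0.217), miR-152 (0.126 and 0.122, range 0.000105 to 0.225) and miR-148b (0.233 and 0.0510, range 0.000110 to 0.233) were lost. Those of miR-26a (0.169, range 2.36e-05 to 0.169), miR-101a (0.0574, range 1.24e-08 to 0.0574) and miR-101b (0.224, range 4.32e-05 to 0.224) were lost without NMG replicate 2, and that of miR-10b also without carcinoma replicate 1 or 2.

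**Figure D4:**
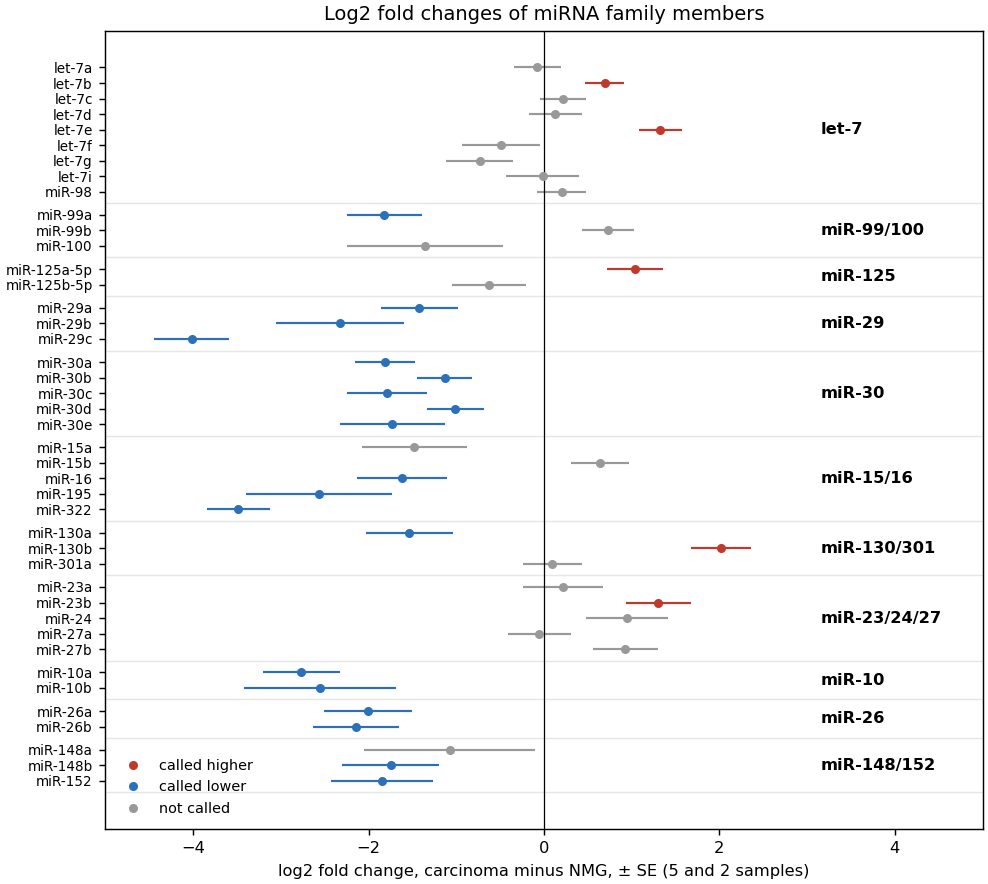
Log2 fold change of carcinoma against NMG with its standard error (5 and 2 samples) for members of 11 miRNA families, colored by the call (miR-301b, miR-497 and miR-503 are not plotted). The miR-29 and miR-30 families lie to the left of 0 as a whole, while let-7e, miR-125a-5p, miR-130b and miR-23b lie to the right of their relatives.

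Further single miRNAs were among the 12 deepest losses. For miR-218, cut from introns of the axon guidance genes Slit2 and Slit3, NMG held 225 and 191 and all carcinoma samples were under the limit, at least 11.5-fold lower (adjusted p = 4.55e-06). For miR-204, from the channel gene Trpm3, values were 17.7, 11.8, 4.79, 9.99 and 20.4 in carcinoma and 282 and 213 in NMG (log2 change -4.28 ± 0.68 SE, adjusted p = 4.89e-05), with 2 of 5 carcinoma samples above the limit. The probe for miR-1274a was at 0 in 4 carcinoma samples and 28.0 and 31.9 in NMG, at least 1.70-fold lower (adjusted p = 0.00828). Its call was lost without NMG replicate 1 or 2 (0.0605 and 0.0738, range 0.000503 to 0.123).

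The Dlk1-Dio3 locus held low losses. It is an imprinted region on chromosome 12 that carries one of the largest miRNA clusters and is active in stem cells and development. Of 31 listed probes tested, 25 were above the limit in both NMG samples and 3 in all carcinoma samples. Called lower were 14 (45.2%, against 24.4% of all mouse miRNAs) and called higher 2 (against 5.82% of all). Measured calls were 13 lower (41.9%, against 18.0%) and 1 higher, the latter miR-543 of the flat probes above. The other one called higher was not above the limit in every carcinoma sample. A measured lower call needs both NMG samples above the limit, as held for 25 of the 31 and for 310 of all 550. The measured shares thus depend on that filter. Over all 56 tested probes with a gene in that region, listed or not, 16 were measured as lower (28.6%) and 19 called lower (33.9%). The median log2 fold change of the 31 was -1.93. It was 0 with the 21 members under the limit in all carcinoma samples set to their bounds, or to 0 where they had none. That second median thus reflects the fill value and is not a measured change. For miR-376c NMG read 90.2 and 88.0, at least 4.96-fold above carcinoma (adjusted p = 0.000231), and for miR-411 44.9 and 37.1, at least 2.30-fold (adjusted p = 1.38e-06). In miR-376b, carcinoma replicate 2 alone was above the limit (0, 18.9, 6.70, 7.49 and 0 in carcinoma and 63.0 and 86.9 in NMG, log2 change -4.16 ± 0.96 SE, adjusted p = 0.00234). Of 14 tested embryonic stem cell probes of the miR-290 and miR-302 clusters, 3 were called lower (21.4%, near the 24.4% of all) and 0 higher, with NMG values of at most 14.0, under the limits of several tumor lanes.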

How the data were processed

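Mouse and viral miRNAs were counted with the nCounter assay in 24 lanes. The deposited values, a score rather than counts, are counts from which the authors' processing had taken off the lane's background, averaged over 6 negative control probes. They are not scaled. Values below 0 were set to 0. TMM factors were computed with trims of 30% and 5% against carcinoma replicate 2. limma with trend was fitted to log2(normalized value + 1), all 7 groups of the series together, and the contrast carcinoma minus NMG was adjusted by Benjamini-Hochberg over 583 probes. Members and lists were chosen with earlier results of these data known. Named miRNAs are list members above the limit in all samples of either group, the 12 largest changes each way among measured calls without overlap, and the 10 most abundant per group. The probe miR-423-5p, miR-137, miR-219 and the X cluster were singled out after their values were seen. A bound sets each carcinoma lane at its limit. The scripts were tested on simulated data. R 4.3.3, limma 3.58.1 and Python 3.11.15 were used. Alternatives were 4 other scalings, a minimum of 20 in 2 or more samples, a pseudocount of 10, a common floor, fewer groups or probes, blocks, and leaving out samples. Taking off the share of positive control A and bounds against single NMG samples were added after seeing the data.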

Additional observations from a re-analysis of the deposited data

Results flagged for a closer look

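In 6 of the 67 miRNAs tried, 1 carcinoma sample stood apart from the other 4 (its gap to the nearest exceeded the critical value for 5 samples), which chance gives in about 1 in 20 groups. The carcinoma samples are shared by all 67, so these are not independent. In 5 of them it was carcinoma replicate 5, with normalized values of 10055 for miR-125b-5p, 4408 for miR-140, 8476 for miR-1944, 357 for miR-221 and 368 for miR-223. For miR-2134 it was carcinoma replicate 1, with 204. Without carcinoma replicate 5 the adjusted p was 0.00767 for miR-140, 8.35e-06 for miR-1944, 0.0427 for miR-221 and 3.73e-05 for miR-223, and without replicate 1 it was 0.0124 for miR-2134. Over all settings the adjusted p ranged 9.17e-06 to 0.0436, 2.99e-07 to 0.404, 0.00123 to 0.711, 4.05e-06 to 0.0617 and 0.00183 to 0.470 in that order.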

How the results depend on the processing

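Limits are the 2 NMG samples and the unequal RNA of the lanes, which left low miRNAs not detectable in the tumor lanes. The cause of each change below was not tested. Of the 72 called miRNAs given with values, 4 higher and 26 lower kept their calls in each of the 21 settings that tested them. The 26 include miR-503, which lay under the common floor and was not tested there. The counts of higher and lower miRNAs, in brackets those measured, were 46 and 95 (42 and 64) when lanes were set to the 100 most abundant miRNAs or to all, 5 and 275 (4 and 209) without scaling, 6 and 163 (5 and 127) on the mRNA control scale, 30 and 82 (30 and 82) with the common floor, and 20 and 81 (18 and 62) with numbered animals only. With the replicate block they were 22 and 88 (21 and 71). By the labels, NMG came from animals other than those of the tumors, so equal replicate numbers are not a pairing. Correlations of deviations for equal numbers were 0.047 and 0.042, but 2 NMG samples are too few to test a pairing. Leaving out 1 sample gave 16 to 35 higher, 76 to 131 lower, 16 to 32 measured higher and 53 to 100 measured lower. Log2 changes that turned sign without scaling were -0.88 for let-7b, -0.25 for let-7e, -0.54 for miR-125a-5p, -0.31 for miR-142-5p, -0.93 for miR-15b, -1.12 for miR-200b, -0.96 for miR-200c, -1.51 for miR-21, -1.04 for miR-222, -0.27 for miR-23b, -1.24 for miR-429, -0.31 for miR-543, -0.42 for miR-93 and -0.84 for miR-99b. On the mRNA control scale they were -0.19 for let-7b, -0.24 for miR-15b, -0.42 for miR-200b, -0.27 for miR-200c, -0.81 for miR-21, -0.38 for miR-222, -0.54 for miR-429 and -0.15 for miR-99b. With the 100 most abundant miRNAs and with the total alike they were 0.38 for let-7a, 0.43 for miR-146a, 0.12 for miR-193b and 0.38 for miR-720. Lettered animals alone gave -0.27 for miR-21 and -0.0024 for miR-222, and numbered animals alone 0.92 for miR-146a, -0.88 for miR-200b, -0.46 for miR-200c, -1.01 for miR-429 and 0.11 for miR-720. The replicate block gave -0.078 for miR-21, and taking off the control share gave -0.42 for miR-543. Leaving out 1 sample, changes that crossed 0 ranged -0.36 to 0.21 for let-7a, -0.35 to 0.20 for miR-146a, -0.18 to 0.31 for miR-21, -0.0097 to 0.75 for miR-222 and -0.47 to 0.32 for miR-720.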
